A study of Mus musculus with 12 samples.

Results

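The genes described here are 10 of the 19 mouse genes that encode Wnt ligands, namely Wnt9a, Wnt4, Wnt5a, Wnt5b, Wnt6, Wnt7a, Wnt7b, Wnt10a, Wnt10b and Wnt11. They were chosen from their summed transcript levels in these same tumours, so their levels and the differences between groups are given as a description. How many of them passed a threshold in the tests over all genes is listed further on, and nothing is read from those counts. The deposited tables cover 35944 genes, of which 15459 had at least 10 estimated reads in at least 3 tumours and were tested. All 10 Wnt genes were among them, although Wnt6 had at least 10 reads in only 5 of the 12 tumours.

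The data are RNA-Seq profiles of 12 tumours, sequenced at 20285968 to 27021401 estimated reads each. 4T1 cells, an established mouse mammary carcinoma line, were injected under the skin of the flank of female BALB/c mice aged 6 to 8 weeks, at 100000 cells a mouse. Starting 5 days later, the mice received extracellular vesicles (EVs, membrane vesicles that cells release) beside the tumour, at 3 µg an injection every 2 days, and tumours were harvested on day 21. The EVs came from the mouse endothelial line MS-1 and had been electroporated with a mimic of 1 of 3 mouse miRNAs (miR-222-3p, miR-183-5p or miR-142-5p) or of cel-miR-67, a nematode miRNA (ctrl), with 3 tumours in each of the 4 groups. The ctrl mice therefore also received endothelial EVs, and every comparison is between loads, not between EVs and no EVs. The labels do not describe the tumours' litters or cages, and each p-value measures only the spread between these tumours.

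Wnt proteins are secreted glycoproteins that carry a fatty acid, which the acyltransferase Porcupine attaches and which they need for export by Wntless and for binding to Frizzled receptors. With the coreceptors Lrp5 and Lrp6, a Wnt bound to Frizzled keeps β-catenin from being degraded, and β-catenin then acts with Tcf and Lef factors on target genes such as Axin2. Other Wnts act mainly without β-catenin, through Ror and Ryk receptors, on cell polarity and movement. In the mammary gland, Wnt signals are known for their part in duct growth and in the upkeep of progenitor cells, and in breast tumours both carcinoma cells and stroma can be their source.

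Since the loaded miRNAs are the only designed difference between the groups, their mature sequences are shown first, from RefSeq on GRCm38.p6, with the seed (bases 2 to 8) in capitals. The 3 seeds differ, so the miRNAs share no seed family. The mimic of miR-222-3p that the study lists lacks the final bases cu of the RefSeq form and holds the same seed.
miR-142-5p: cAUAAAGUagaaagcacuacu
miR-183-5p: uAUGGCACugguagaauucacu
miR-222-3p: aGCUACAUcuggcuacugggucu
The 3′ UTRs of the Wnt genes were searched on the sense strand for the reverse complement of bases 2 to 8, with or without the following A that makes the match an 8mer. The letters searched for were ACTTTAT in the case of miR-142-5p. They were GTGCCAT in the case of miR-183-5p. Those of miR-222-3p were ATGTAGC. No match to any of the 3 miRNAs was found in the 27 coding transcripts of the 10 Wnt genes that were searched. The most abundant of these for each gene had 3′ UTRs with a median length of 1816 bases. Wnt11-202 was not among those searched, although it had a higher mean TPM than Wnt11-205, the most abundant searched transcript of Wnt11. It carried between 0% and 95.6% of the TPM of that gene, so the search does not cover Wnt11 fully. Wnt6-202 was not searched either, and carried between 0% and 84.2% of the TPM of Wnt6, with a median of 31.6%. The background was the 14649 tested genes with a coding transcript that has an annotated stop codon. Their 3′ UTRs had a median length of 953 bases and a lowest length of 0. Of these genes, 14.2% held a match to miR-142-5p, while 9.26% did to miR-183-5p and 9.52% to miR-222-3p. The absence of these letters from the annotated 3′ UTRs searched says nothing about other transcripts or other kinds of site.

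Wnt7b was by far the most abundant Wnt transcript of these tumours. Levels are given as TPM, the share of transcripts in a library scaled to a fixed sum, a measure per unit of transcript length that can be set side by side between genes. Wnt7b, a ligand of the β-catenin pathway that mammary and lung epithelium make, averaged 96.4 ± 11.3 TPM (SD, n = 12) and supplied between 67.9% and 76.7% of the summed TPM of all 19 Wnt genes in a tumour. It was followed by Wnt10b at 12.0 ± 2.10 TPM, Wnt9a at 6.18 ± 1.80 TPM and Wnt10a at 5.25 ± 1.10 TPM. The order went on with Wnt5a (mean 2.81 TPM), Wnt7a (2.65 TPM), Wnt11 (2.04 TPM), Wnt5b (1.03 TPM), Wnt6 (0.374 TPM) and Wnt4 (0.270 TPM). The range of Wnt7b did not meet that of any other Wnt gene, whereas every other neighbouring pair in this order overlapped over the 12 tumours. Within a tumour, Wnt10b still lay above Wnt9a in 12 of 12 tumours and Wnt5b above Wnt6 in 12 of 12. The order of Wnt9a and Wnt10a was not fixed, Wnt9a being the higher in 7 of 12 tumours.

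**Figure D1:**
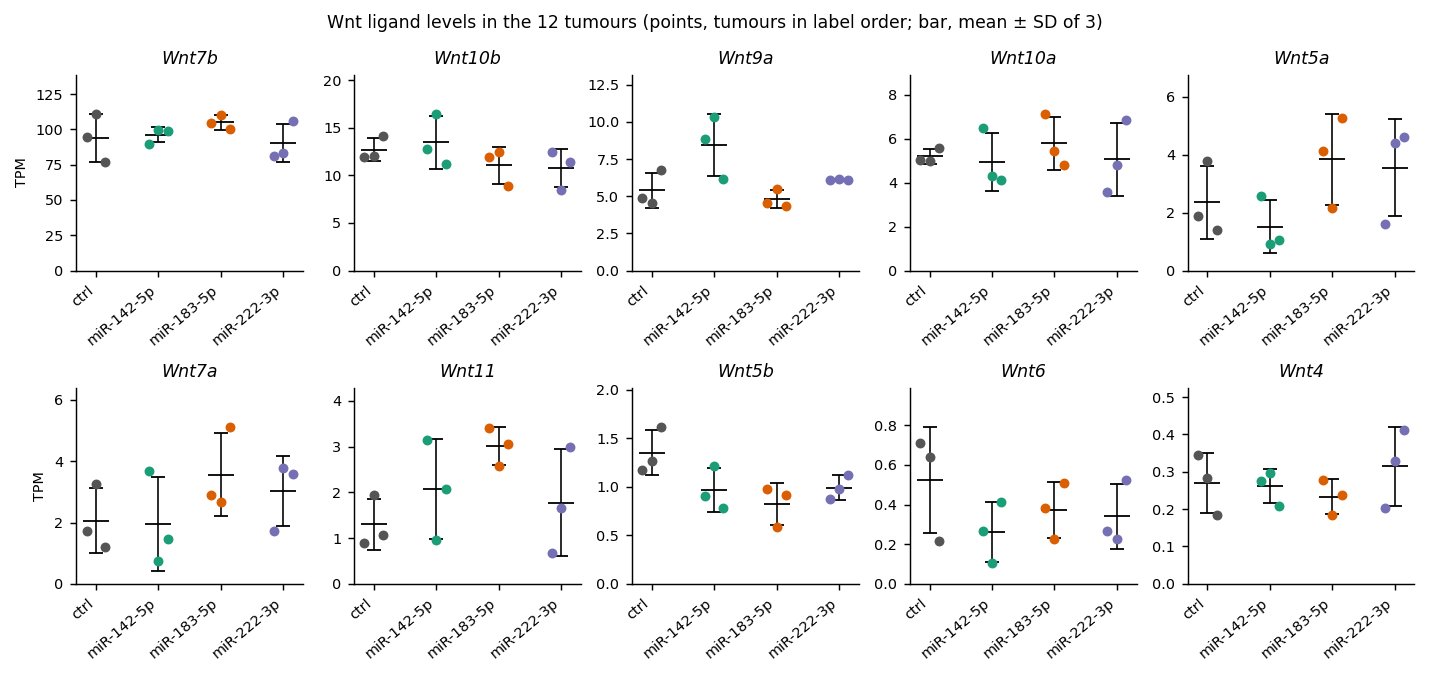
TPM of each Wnt gene (vertical axis, from 0, with its own scale a panel) in the 12 tumours by group, in order of the mean level. Points are tumours and bars the mean ± SD of 3 tumours. Wnt9a lies between 6.18 and 10.3 TPM in the miR-142-5p tumours and between 4.36 and 5.48 TPM in the miR-183-5p tumours.

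Wnt9a, a ligand known from joint formation and from blood stem cell development, had its highest levels in tumours that received miR-142-5p EVs. The gene lies on chromosome 11 (chr11:59306928-59333552, GRCm38, plus strand), and transcript Wnt9a-202 carried between 91.7% and 100% of its TPM. In the ctrl tumours it measured 4.86, 4.57 and 6.74 TPM, and in the miR-142-5p tumours 8.87, 10.3 and 6.18 TPM. In the miR-183-5p tumours it measured 4.51, 5.48 and 4.36 TPM, and in the miR-222-3p tumours 6.10, 6.17 and 6.06 TPM. Tumours 1 and 2 of the miR-142-5p group thus lay above every other tumour, while tumour 3 of that group fell below the highest ctrl tumour. The miR-183-5p tumours lay below all miR-142-5p and all miR-222-3p tumours, and the miR-222-3p values were the closest together, with an SD of 0.05 TPM.

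On normalised counts (reads scaled for depth and transcript length), the log2 fold change of Wnt9a between the miR-142-5p and ctrl groups was 0.68 ± 0.23 (SE), and between the miR-183-5p and miR-142-5p groups it was -0.82 ± 0.23. Compared to ctrl, the value was -0.14 ± 0.23 with miR-183-5p and 0.18 ± 0.23 with miR-222-3p. These comparisons share the ctrl tumours. The values depended on tumour 3 of the miR-142-5p group. Without it, the log2 fold change was 0.90 compared to ctrl and -1.04 for miR-183-5p compared to miR-142-5p. That tumour was also the one with the highest T cell marker level, described with Lef1 further on. The sign of each of the 6 Wnt9a differences was the same in all alternatives tried.

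Macrophage markers partly moved with Wnt9a. The summed TPM of 6 markers (Adgre1, Csf1r, Cd68, C1qa, C1qb and Mrc1) ranged from 1457 to 2122 in the miR-142-5p tumours, from 1358 to 1700.03 in ctrl, from 1185 to 1805 in the miR-222-3p tumours and from 899 to 1336 in the miR-183-5p tumours. Of the 6 markers, 5 had a positive log2 fold change for miR-142-5p compared to ctrl and 0 for miR-183-5p compared to miR-142-5p, where the median was -0.53, and none passed the test (DESeq2) in any comparison. Over the 12 tumours, on log2(normalised count + 1), r between Wnt9a and the marker sum was 0.66 and rho 0.50, r was 0.33 without the 2 tumours of most extreme marker sum, and 0.53 for the deviations from the group means. With the sum of 5 endothelial markers (Pecam1, Cdh5, Kdr, Tek and Emcn), Wnt9a had an r of 0.39 and a rho of 0.63. That r was 0.54 without the 2 tumours of most extreme endothelial sum, and 0.07 for the deviations. The macrophage relation was not particular to Wnt9a. For Wnt10b, r with the macrophage sum was 0.64, rho 0.47, r without the extreme tumours 0.12 and r of the deviations 0.63. The part of any of these markers in the Wnt9a differences was not tested.

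The genes whose pattern over the 12 tumours was most like that of Wnt9a, out of 11541 with a mean normalised count of at least 100, were Il1rl2, Klf2, Phospho1, Tnfrsf19 and Abhd12. Likeness was measured by Pearson's r of log2(normalised count + 1), and is a description. Il1rl2, the receptor for interleukin-36, had an r of 0.91 and Spearman's rho of 0.85. Klf2, a transcription factor of quiescent endothelial cells and T cells, had an r of 0.89, and its mean was 20.8 TPM in the miR-142-5p group and 12.2 to 13.8 TPM in the others. Phospho1, a phosphatase of bone mineralisation, reached an r of 0.86, Tnfrsf19, a TNF receptor family member, 0.86, and Abhd12, a lipase of lysophospholipids, 0.84. The points share libraries and their depth.

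Wnt7b varied least of the 10 genes, with a highest value 1.44 times the lowest. It measured 94.5, 110.9 and 76.9 TPM in the ctrl tumours and 89.9, 99.4 and 99.2 TPM in the miR-142-5p tumours. The miR-183-5p tumours had 104.7, 110.1 and 100.04 TPM, and the miR-222-3p tumours 81.2, 83.6 and 106.03 TPM. All 3 miR-183-5p tumours lay above the miR-142-5p tumours, by a log2 fold change of only 0.14 ± 0.18, and both groups lay within the range of ctrl. The related ligands of the epithelium, Wnt10b and Wnt10a, overlapped between all groups. Wnt10b, known for keeping mesenchymal cells from becoming adipocytes, ranged from 8.49 to 16.5 TPM, and Wnt10a, known from tooth and hair formation, from 3.55 to 7.13 TPM.

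Wnt5a, the best known ligand that acts without β-catenin, varied widely within each group. It measured 1.87, 3.78 and 1.40 TPM in the ctrl tumours and 2.57, 0.92 and 1.05 TPM in the miR-142-5p tumours. In the miR-183-5p tumours it was 4.11, 2.14 and 5.26 TPM, and in the miR-222-3p tumours 1.61, 4.42 and 4.63 TPM. The lowest 2 values were miR-142-5p tumours 2 and 3, and all groups overlapped. The log2 fold change was 1.32 ± 0.51 for miR-183-5p compared to miR-142-5p, -1.21 ± 0.51 for miR-142-5p compared to miR-222-3p and -0.59 ± 0.51 for miR-142-5p compared to ctrl. Without miR-142-5p tumour 1, the first of these rose to 2.02 and the second went to -1.91. Transcripts Wnt5a-202 and Wnt5a-201 carried a median of 50.8% and 42.4% of its TPM.

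Wnt7a, known from limb patterning, followed Wnt5a from tumour to tumour. It measured 1.73, 3.25 and 1.20 TPM in the ctrl tumours, 3.67, 0.74 and 1.46 TPM in the miR-142-5p tumours, 2.88, 2.68 and 5.12 TPM after miR-183-5p EVs and 1.71, 3.76 and 3.58 TPM in the miR-222-3p tumours. The highest value of either gene was in miR-183-5p tumour 3 and the lowest in miR-142-5p tumour 2. Over the 12 tumours Pearson's r of the pair was 0.93 and Spearman's rho 0.91, r was 0.90 without the 2 tumours of most extreme Wnt5a level, and 0.92 for the deviations from the group means. With miR-142-5p tumour 1 left out, the log2 fold change of Wnt7a for miR-142-5p compared to ctrl went from -0.04 to -0.96.

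Wnt11, a ligand of cell movement and kidney branching, measured 0.90, 1.94 and 1.07 TPM in the ctrl tumours and 3.40, 2.57 and 3.06 TPM in the miR-183-5p tumours. These groups did not overlap, and the log2 fold change was 1.24 ± 0.55. The miR-142-5p tumours had 3.15, 0.97 and 2.07 TPM and the miR-222-3p tumours 0.67, 1.66 and 2.99 TPM, so each of these groups covered most of the range. Reads were few, from 16 to 101 a tumour.

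Levels of Wnt5a and Wnt7a, and less closely Wnt11, moved with the summed level of fibroblast markers. Of the 6 markers (Col1a1, Col1a2, Pdgfra, Dcn, Lum and Pdgfrb), Col1a1 and Col1a2 had medians of 239 and 261 TPM. The others had medians from 9.07 TPM (Lum) to 21.6 TPM (Dcn), so the sum mainly followed Col1a1 and Col1a2. The summed TPM of the 6 markers fell into 2 ranges, 188 to 317 TPM in 5 tumours and 545 to 936 TPM in 7, so no correlation over all 12 is given. The 5 tumours of the lower range were ctrl tumours 1 and 3, miR-142-5p tumours 2 and 3 and miR-222-3p tumour 1. They had between 0.92 and 1.87 TPM of Wnt5a and between 0.74 and 1.73 TPM of Wnt7a, while the other 7 had between 2.14 and 5.26 TPM and between 2.68 and 5.12 TPM. For Wnt11 the 2 sets of tumours overlapped, at 0.67 to 2.07 TPM and 1.66 to 3.40 TPM. Within the 7 tumours the relation was loose, with an r of 0.56 and a rho of 0.46 for Wnt5a, an r of 0.42 and a rho of 0.04 for Wnt7a and an r of 0.48 and a rho of 0.61 for Wnt11. Values of that size were also seen for Wnt6 (r 0.55, rho 0.43), Wnt7b (0.41 and 0.46) and Wnt10a (0.34 and 0.61), so the relation within this range is not particular to the 3 genes. For Wnt9a, r was -0.08 and rho -0.11. All 3 miR-183-5p tumours were in the upper range (591 to 775 TPM), while ctrl spanned 279 to 588 TPM, miR-142-5p 188 to 545 TPM and miR-222-3p 259 to 936 TPM. Other markers moved with the 3 genes too. On log2(normalised count + 1), over the 12 tumours, r with the summed normalised counts of 6 skin keratinocyte markers was 0.79 for Wnt5a, 0.83 for Wnt7a and 0.77 for Wnt11 (rho 0.73, 0.78 and 0.70), and r with the macrophage sum was -0.71, -0.75 and -0.72 (rho -0.76, -0.66 and -0.70). Without the 2 tumours of most extreme marker sum, r was 0.69, 0.75 and 0.62 for the keratinocyte list and -0.51, -0.48 and -0.74 for the macrophage list. The keratinocyte sum was mainly Krt14 (median 19.2 TPM), beside Krt10 (4.03 TPM) and markers with medians of at most 0.126 TPM. It was lowest in the same 5 tumours as the fibroblast sum, at 12.3 to 20.7 TPM against 23.6 to 41.0 TPM in the other 7. Its r over the 12 tumours thus spans the same 2 sets, and none within them is given. For the endothelial sum, r was -0.62, -0.67 and -0.60 (rho -0.52, -0.55 and -0.38). Leaving out the 2 tumours of most extreme endothelial sum gave -0.52, -0.58 and -0.28. The keratinocyte and endothelial relations were not particular to the 3 genes. For Wnt10a, r with the keratinocyte sum was 0.75 and rho 0.70, and r without the extreme tumours was 0.63. For Wnt7b, r with the endothelial sum was -0.79 and rho -0.77, and r without the extreme tumours was -0.51. The part of any of these markers in the differences of Wnt5a, Wnt7a and Wnt11 was not tested. In RNA of a whole tumour, fewer cells of a type and less RNA per cell cannot be told apart.

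**Figure D2:**
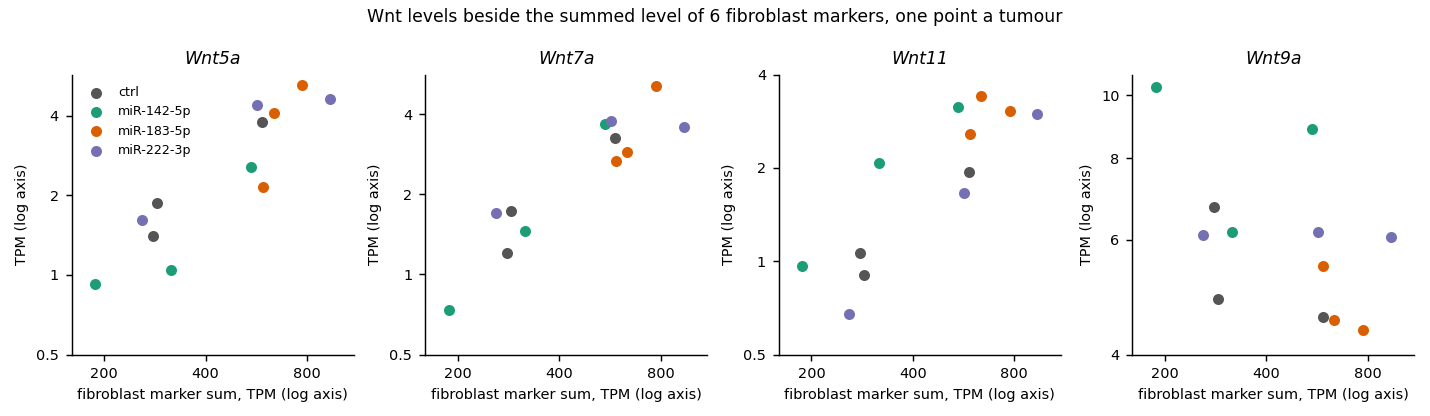
TPM of Wnt5a, Wnt7a, Wnt11 and Wnt9a (vertical, log axis) against the summed TPM of 6 fibroblast markers (horizontal, log axis), with 1 point a tumour and colours for the groups. The 5 tumours with 188 to 317 TPM of the markers hold the lowest Wnt5a and Wnt7a levels, and Wnt9a shows no such order.

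Wnt5b, a relative of Wnt5a, was highest in the ctrl tumours, with 1.17, 1.27 and 1.62 TPM. The miR-142-5p tumours had 0.91, 1.21 and 0.78 TPM, the miR-183-5p tumours 0.98, 0.58 and 0.91 TPM and the miR-222-3p tumours 0.87, 0.98 and 1.12 TPM. The log2 fold changes compared to the shared ctrl tumours were -0.47 ± 0.36, -0.69 ± 0.37 and -0.44 ± 0.36, from 20 to 47 reads a tumour. On normalised counts none of the 3 groups overlapped ctrl, whereas in TPM the miR-142-5p group did. Wnt5b overlaps Fbxl14 on the opposite strand, a gene at 23.7 to 28.7 TPM, and whether the read assignment used the strand of the kit is not given in the sources used here.

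Wnt6 and Wnt4 were near the limit of what these libraries could show. Wnt6, a ligand of epithelia, had between 3 and 17 reads a tumour, and its log2 fold change for miR-142-5p compared to ctrl was -1.01 ± 0.78. Wnt4, which acts in mammary side branching, had between 10.9 and 32.9 estimated reads and between 0.184 and 0.412 TPM. The SE of its log2 fold change compared to ctrl was 0.51 for miR-142-5p.

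Compared with the background, none of the 10 Wnt genes had an adjusted p-value under 0.05 in any of the 6 comparisons of the fit to all 12 tumours (DESeq2, Wald test, Benjamini-Hochberg adjustment over all genes), nor with edgeR. Of all genes tested by DESeq2, 0.00649% did in the comparison of miR-142-5p with ctrl, 0% in that of miR-183-5p and 0.026% in that of miR-222-3p. The shares were 0.0519% for miR-183-5p compared to miR-142-5p, 0.0324% for miR-183-5p compared to miR-222-3p and 0.0389% for miR-142-5p compared to miR-222-3p. At an unadjusted p-value under 0.05, DESeq2 and edgeR each counted 1, 1, 0, 2, 0 and 2 of the 10 Wnt genes in these comparisons, in this order, against 3.56%, 3.22%, 2.29%, 7.95%, 3.24% and 3.59% of all genes in DESeq2. With miR-142-5p tumour 1 left out, Wnt5a and Wnt7a were called for miR-183-5p compared to miR-142-5p (2.85% of all genes) and Wnt5a for miR-142-5p compared to miR-222-3p (0.466%). With miR-142-5p tumour 3 left out, Wnt9a was called for miR-142-5p compared to ctrl (0.0194%) and for miR-183-5p compared to miR-142-5p (0.0453%). Since the genes were chosen on these contrasts, nothing is read from these counts.

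Groups without overlap of normalised counts were found for Wnt5b in the miR-142-5p comparison with ctrl (1 of 10, against 6.07% of all genes tested) and for Wnt5b and Wnt11 in the miR-183-5p comparison with ctrl (2 of 10, against 9.17%). Wnt5b alone did not overlap between miR-222-3p and ctrl (against 5.5%), Wnt9a and Wnt7b between miR-183-5p and miR-142-5p (against 12.3%) and Wnt9a between miR-183-5p and miR-222-3p (against 9.06%). No Wnt gene was free of overlap between miR-142-5p and miR-222-3p, where 6.2% of all genes were, although the TPM of Wnt9a separated these groups narrowly. Of the 10 Wnt genes, 4 had a positive log2 fold change in miR-142-5p compared to ctrl, 5 in miR-183-5p and 5 in miR-222-3p. Their median absolute log2 fold change was 0.28, 0.34 and 0.34 in these comparisons, and 0.12, 0.12 and 0.11 over all genes tested, which differ from the Wnt genes in level.

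**Figure D3:**
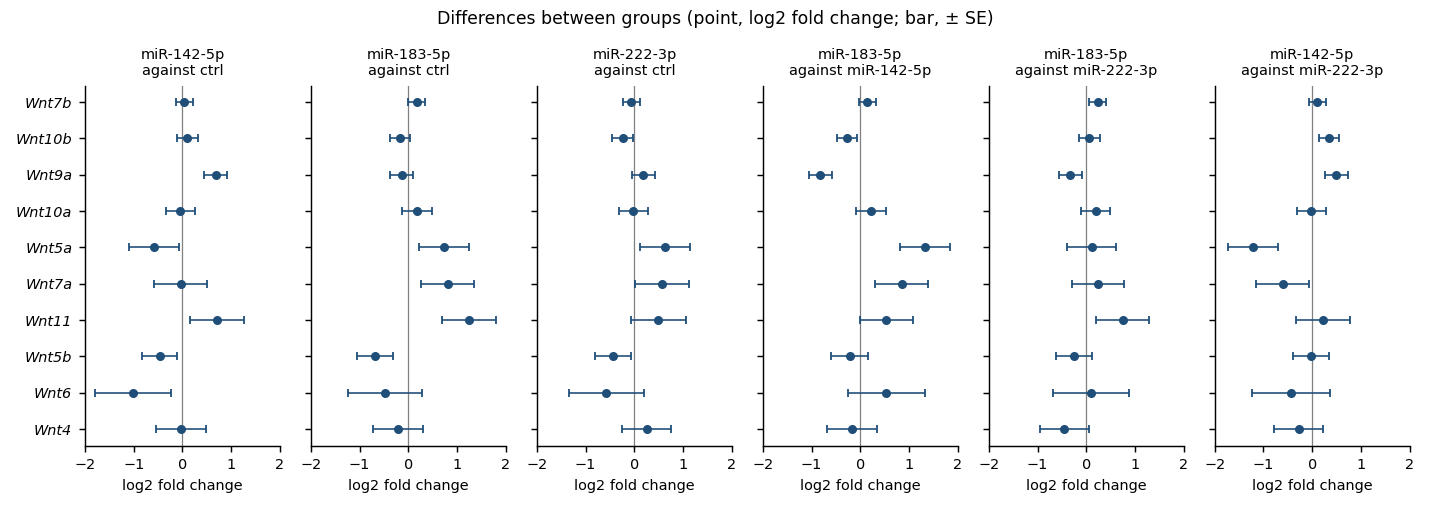
Log2 fold change (horizontal axis, ± SE) of each Wnt gene in the 6 comparisons, in order of the mean level. Bars are shortest for Wnt7b (0.18 for miR-183-5p compared to ctrl) and longest for Wnt6 (0.76), and Wnt9a stands at 0.68 for miR-142-5p compared to ctrl.

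The other 9 Wnt genes were scarce. Of these, 4 passed the read filter, with means of 1.55 TPM for Wnt2b, 0.92 TPM for Wnt2, 0.42 TPM for Wnt1 and 0.27 TPM for Wnt16, while Wnt3, Wnt3a, Wnt8a, Wnt8b and Wnt9b did not. Close neighbours on a chromosome were at unlike levels. Wnt3a lies 16175 bases from Wnt9a on the opposite strand of chromosome 11, with no coding gene between them, and was listed at 0 in 11 of 12 tumours. Wnt1 lies 11706 bases from Wnt10b on chromosome 15 and ranged from 0.192 to 0.634 TPM. Wnt6 lies 6193 bases from Wnt10a on the same strand of chromosome 1.

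Carriers, receptors and transducers of Wnt proteins were measured in every tumour, and in the fit to all tumours none of the genes tested was called in any comparison. Of 74 genes in 7 lists (other Wnt ligands, secretion, receptors, the R-spondin axis, antagonists, intracellular transducers and feedback targets), 56 were tested. DESeq2 found 0 with an adjusted p-value under 0.05 in each of the 6 comparisons, as did edgeR. At an unadjusted p-value under 0.05, DESeq2 counted 5, 7, 5, 5, 0 and 4 of the 56 genes in the 6 comparisons, in the order used above. These were 8.93%, 12.5%, 8.93%, 8.93%, 0% and 7.14% of them, beside the 3.56%, 3.22%, 2.29%, 7.95%, 3.24% and 3.59% of all genes given above. With edgeR the counts were 5, 4, 5, 3, 0 and 2, or 8.93%, 7.14%, 8.93%, 5.36%, 0% and 3.57%, beside 3.35%, 2.87%, 2.04%, 7.30%, 2.88% and 3.38% of all genes. The lists were chosen with earlier results of these data known, so nothing is read from these unadjusted counts and shares. The median log2 fold change of the 56 genes compared to ctrl was 0.12 with miR-222-3p, 0.08 with miR-183-5p and 0.02 with miR-142-5p, against medians over all genes tested of -0.01 for the first 2 and -0.00 for the last.

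For secretion, all 4 genes were tested. Tmed2, a cargo receptor of the early secretory pathway, averaged 497 TPM, Wls, the Wntless carrier, 139 TPM, and Tmed5, a relative of Tmed2, 40.3 TPM. Porcn, the acyltransferase, was the lowest of them at 13.8 TPM and varied from 6.84 TPM in ctrl tumour 2 to 21.3 TPM in miR-222-3p tumour 3. The median log2 fold change of the 4 genes compared to ctrl was 0.01 with miR-222-3p, 0.06 with miR-183-5p and 0.01 with miR-142-5p.

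Among the 16 receptors and coreceptors, 14 were tested. Ryk (59.6 TPM) and Ptk7 (45.5 TPM), receptors of the branch without β-catenin, and the coreceptor Lrp5 (39.2 TPM) were the most abundant. Of the Frizzled receptors, Fzd6 (24.2 TPM) and Fzd7 (18.8 TPM) led, followed by Fzd1 (6.48 TPM), Fzd5 (6.21 TPM), Fzd2 (5.54 TPM), Fzd4 (3.01 TPM) and Fzd3 (1.18 TPM). Fzd8 and Fzd9 stayed at or below 0.29 TPM in each tumour, and Fzd10 was listed at 0 in 7 tumours. The coreceptor Lrp6 measured 14.7, 15.4 and 21.4 TPM in the ctrl tumours, 13.8, 16.4 and 18.3 TPM in the miR-142-5p tumours and 17.5, 14.7 and 14.4 TPM in the miR-183-5p tumours. These groups overlapped.

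Lrp6 is shown with its sites because it was the only tested gene of the lists whose 3′ UTR held an 8mer match to more than 1 of the loaded miRNAs. Both lie in its last exon, exon 23, on the minus strand of chromosome 6 (GRCm38), and the match is in capitals. The first line shows chr6:134447757-134447786, with the match to miR-142-5p at 134447768-134447775. The second line shows chr6:134450565-134450594, with the match to miR-183-5p at 134450576-134450583.
Lrp6, miR-142-5p match: tagcccttataACTTTATAgaaacaattac
Lrp6, miR-183-5p match: ttttgctgcttGTGCCATAaaagtttgtat
In all, 11 of the 56 genes held a match to miR-142-5p, as did 5 to miR-183-5p and 3 to miR-222-3p. Compared to ctrl, 7 of the 11 had a negative log2 fold change in the tumours that received miR-142-5p EVs, as did 51.2% of all genes tested, with a median of -0.07. The counts were 2 of 5 for miR-183-5p, beside 52.7% of all genes, with a median of 0.13, and 0 of 3 for miR-222-3p, beside 52.0% and with a median of 0.07. None of these genes passed the test. A match is a description of the sequence, not a site shown to be used.

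In the R-spondin axis, which sets how many Frizzled receptors stay on the cell surface, Lgr6 (26.6 TPM), Lgr4 (6.51 TPM) and Znrf3 (6.05 TPM) were the most abundant, and none of the 4 R-spondin ligands passed the read filter. Of the 16 antagonists, 10 were tested. Notum, an enzyme that removes the fatty acid from Wnt proteins, led at 39.9 TPM, before the Dkk receptor Kremen1 at 22.0 TPM and the membrane inhibitor Apcdd1 at 17.9 TPM. The median log2 fold change of the 10 antagonists compared to ctrl was 0.79 with miR-222-3p, 0.46 with miR-183-5p and 0.02 with miR-142-5p. For Notum itself the values were -0.20, -0.22 and -0.04, and no antagonist passed the test. Among the 16 transducers, Csnk1a1 (152 TPM) and Gsk3a (84.6 TPM), kinases of the complex that degrades β-catenin, and Dvl1 (66.4 TPM), which relays the Frizzled signal, led.

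**Figure D4:**
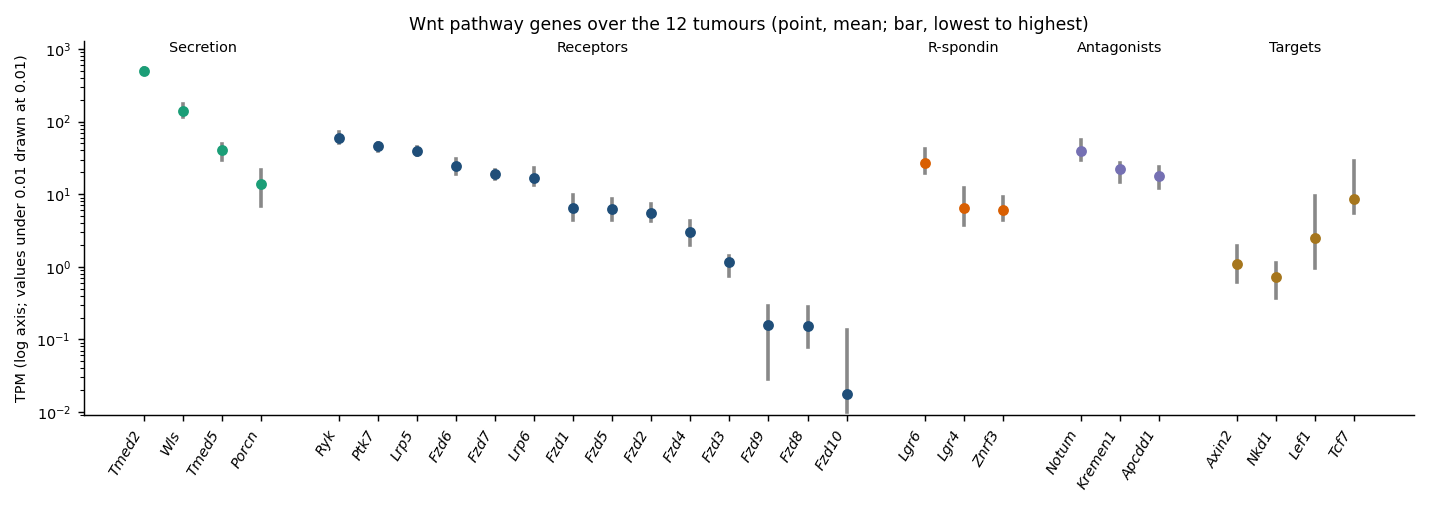
TPM (vertical, log axis) of Wnt pathway genes by role, with points for the mean and bars from the lowest to the highest of the 12 tumours. Wls averages 139 TPM, Fzd6 24.2 TPM, Notum 39.9 TPM and the target Axin2 1.09 TPM.

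The feedback targets of β-catenin were at unlike levels. Notum, Apcdd1 and Tcf7, which also belong to this list, averaged 39.9, 17.9 and 8.54 TPM, while Axin2 and Nkd1 were low. Axin2, the most general target of β-catenin, ranged from 0.62 to 1.93 TPM, overlapping between all groups. Nkd1, an inhibitor that the pathway induces, measured 0.369, 0.568 and 0.370 TPM in the ctrl tumours, 0.782, 0.782 and 0.512 TPM in the miR-142-5p tumours, 1.02, 0.787 and 0.758 TPM after miR-183-5p EVs and 0.516, 1.14 and 1.13 TPM in the miR-222-3p tumours. The miR-183-5p tumours lay above ctrl. The log2 fold change was 0.98 ± 0.46 with miR-183-5p and 1.09 ± 0.46 with miR-222-3p, and neither passed the test (DESeq2 adjusted p = 0.9998 and 0.99996).

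Lef1 and Tcf7, partners of β-catenin that T cells also express, were high in 1 tumour. Lef1 measured 9.39 TPM in miR-142-5p tumour 3 and between 0.969 and 3.08 TPM in the other 11, and Tcf7 28.9 TPM and between 5.47 and 8.40 TPM. In the same tumour the summed level of 4 T cell markers (Cd3e, Cd3d, Cd4 and Cd8a) was 88.8 TPM, against 12.7 to 37.2 TPM elsewhere. Its part in the levels was not tested. The log2 fold change of Lef1 for miR-142-5p compared to ctrl was 1.65 ± 0.53 (DESeq2 adjusted p = 0.649) and that of Tcf7 1.12 ± 0.42 (DESeq2 adjusted p = 0.982). Without miR-142-5p tumour 3 the log2 fold changes were 0.50 for Lef1 and 0.12 for Tcf7 in this comparison, and -0.21 and -0.09 in place of -1.35 and -1.09 for miR-183-5p compared to miR-142-5p. Without miR-142-5p tumour 1, which leaves tumour 3 in, Lef1 had a DESeq2 adjusted p of 0.0275 in this comparison, where 0.495% of all genes passed the threshold, and Lef1, Tcf7 and Sfrp1 passed the threshold for miR-183-5p compared to miR-142-5p, as did 2.85% of all genes.

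Most of the 6 carcinoma epithelium markers were abundant. Medians were 788 TPM for Krt18, 517 TPM for Krt8, 288 TPM for Cldn4, 90.4 TPM for Epcam and 52.3 TPM for Cdh1. Krt19 was low, at a median of 3.50 TPM and between 0.87 and 10.4 TPM. Of the 6 keratinocyte markers of skin, whose sum ranged from 12.3 to 41.0 TPM, Krt1 was at 0 in all tumours and Lor and Krtdap in 9 and 10 of 12. Krt5 stayed at or below 0.45 TPM, while Krt14 (6.74 to 37.4 TPM) and Krt10 (3.51 to 5.32 TPM) were above 0 in every tumour. The 5 hair follicle markers together stayed at or below 0.326 TPM. Skeletal muscle markers summed to 279 TPM in miR-183-5p tumour 3, against 7.85 to 15.4 TPM in the other 11. Tumour 3 of the miR-183-5p group and those of the miR-222-3p group also differed from the other 8 libraries in the share of reads that the near-identical genes Gm28661 and mt-Co2 gave to Gm28661, at most 0.324% against at least 7.13%. The split ran within the miR-183-5p group, whose tumours 1 and 2 lay on the other side, but held all miR-222-3p tumours on 1 side, so in comparisons of that group with ctrl or miR-142-5p it cannot be told apart from the treatment. Its source was not tested.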

How the data were processed

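Polyadenylated RNA of 12 tumours was sequenced from strand-specific libraries, 1 a tumour, grouped here by the treatment in the labels. The authors quantified reads with Salmon (v.0.8.2 in the methods) on GRCm38; the methods name Ensembl release 90 and the tables are named for release 97. The deposited tables give for each of 118783 transcripts an estimated count of reads, which need not be whole, the TPM and an effective length. Here 116710 transcripts (98.3%) were matched to GENCODE M21 and summed per gene; the rest held 0.633% to 0.671% of reads. Summed estimated counts were rounded, and TPM-weighted effective lengths entered DESeq2 1.42.0 (R 4.3.3) as an offset, with group as the factor and 1 fit for all tumours. The Benjamini-Hochberg method adjusted p-values over the genes tested. edgeR 4.0.16 (quasi-likelihood test), TMM factors, no filter, a mean of at least 50 reads, no offset, only the 2 groups compared, a replicate block, a threshold of 0.1 and leaving out each tumour were alternatives. On simulated counts, effects were recovered, DESeq2 called unchanged genes more often than its threshold allows and edgeR did not. The Wnt genes and all lists were chosen with earlier results of these data known. Named pathway genes were the 3 with the highest mean TPM of each list, any called, and Axin2, Nkd1, Lef1, Porcn, Wls and the Frizzled genes; Lrp6, Sfrp1 and the scarcer Wnt genes were named after their values were seen. 3′ UTRs were read from GENCODE M21. Same-numbered tumours did not deviate together, with a mean correlation of -0.07 over 18 pairs and 0.03 for 36 pairs of different numbers.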

Additional observations from a re-analysis of the deposited data

How the results depend on the processing

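The counts of genes called depended on the processing. The calls of the fit to all tumours compared to ctrl numbered 1 with miR-142-5p, 0 with miR-183-5p and 4 with miR-222-3p, then 8 for miR-183-5p compared to miR-142-5p, 5 for miR-183-5p compared to miR-222-3p and 6 for miR-142-5p compared to miR-222-3p. In this order, they were 0 in all 6 with edgeR, and 1, 36, 16, 71, 18 and 15 with only the 2 groups compared. Without the length offset, 0 genes were called for miR-142-5p compared to ctrl and 4 for miR-183-5p compared to miR-142-5p, and with no filter 5 for the latter. At a threshold of 0.1 the latter had 38 and miR-222-3p compared to ctrl 7. With each tumour left out in turn the counts ranged from 0 to 75, 0 to 15, 2 to 6, 0 to 415, 1 to 16 and 2 to 72, with 75, 415 and 72 reached without miR-142-5p tumour 1. Pathway genes called ranged from 0 to 1 for miR-142-5p compared to ctrl and from 0 to 3 for miR-183-5p compared to miR-142-5p, and were 0 elsewhere. Of the 10 Wnt genes, at most 2 were called for miR-183-5p compared to miR-142-5p and 1 each for miR-142-5p compared to ctrl and to miR-222-3p, and only with a miR-142-5p tumour left out. The cause was not tested.

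With the replicate block, 1, 1, 6, 6, 9 and 5 genes were called, and no Wnt or pathway gene. The numbers do not pair the tumours, so these values bear on no result.

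Of 882 values of the 60 Wnt differences under 9 alternatives and 12 left-out tumours, 877 moved by less than 1 pooled SD between tumours and 843 kept their sign, 90 of 90 for Wnt9a. The 5 that moved further were Wnt7a in the 3 comparisons of miR-142-5p without its tumour 1, and Wnt5b and Wnt6 on log2(TPM + 1), which understates low genes. Restricting seed matches to 8mers left 0 matches. With 3 tumours a group and under 50 reads, differences of Wnt4, Wnt5b and Wnt6 rest on little data.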
